A study of Oncorhynchus mykiss with 48 samples.

Results

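The genes described here were less abundant, in a dose-graded way, in livers of year-old rainbow trout whose mothers had grown from eggs loaded with bisphenol A (BPA). They were 54 of the 46585 genes in the deposited tables. Each was chosen in the F2 generation at 365 days post-fertilization (dpf), where every fish of the 40 ng lineage lay below every Control fish and the mean of the 4 ng lineage lay between the means of those groups.

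Liver transcripts were measured by RNA-seq in 48 rainbow trout, 4 fish in each of 12 groups. F0 eggs, pooled from several females, were held in ovarian fluid for 3 h. The fluid held ethanol alone or BPA at 3 or 30 mg/l, and the eggs then carried 0, 4 or 40 ng of it (Control, BPA4 and BPA40). The F1 fish that grew from these eggs were sampled at 140 and 365 dpf. The F2 fish came from eggs of F1 females of each treatment and milt of untreated males, and were sampled at 112 and 365 dpf. All fish were raised in clean water, and the F0 eggs of the Control lineage received the vehicle without BPA. The eggs of the F1 females held no detectable BPA. The sampled F1 fish were raised in 3 tanks per treatment. F2 fish of each treatment grew in 1 tank, so tank and treatment cannot be told apart in that generation. Each treatment also had its own F1 mothers, whose number is not given, so family and treatment cannot be told apart there either. Fish of an F2 group may be siblings. Neither the tank, the mother nor the sex of a fish is given in the labels. The p-values below therefore measure the spread between fish. The labels disagree with themselves in places: the titles of the F2 juveniles say 140 dpf where their age entry says 112, and the descriptions of the F1 BPA40 fish give the lower incubation dose. The age and treatment entries were used.

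The liver of a fish takes up and stores nutrients, makes plasma proteins and, in maturing females, egg yolk protein, and it breaks down hormones and foreign compounds. BPA is a plastic monomer that binds oestrogen receptors and can interfere with other hormone signals. A female trout can pass BPA to her eggs, so that the embryo and its germ cells meet the compound before the fish feeds.

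The tables carry gene identifiers of the first published trout genome and no gene names. Of the 46585 identifiers, 0 matched an entry of the RefSeq gene table, so the 54 genes are given by identifier, without names, functions or sequences. For the same reason the liver label could not be checked against marker genes. Each table listed the sequenced fragments per gene and fish, which were scaled here to the total of the fish (CPM). The fish of F2 at 365 dpf had 13390395 to 19085721 fragments and 24570 to 30120 genes with at least 5 fragments. F2 juveniles were shallower, at 6664769 to 15445255 fragments. In the smallest library a count of 0 allows a level of up to 0.450 CPM (3 fragments), and this limit covers counting error only. In bulk liver RNA, fewer cells of a type and less RNA per cell cannot be told apart.

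The choice went in steps. The F2 365 dpf table held 46571 genes that had not been set aside by the quantification program as too deeply covered (status HIDATA). Every BPA40 fish lay below every Control fish in 470 of them, which in the genes kept for testing was 1.45% (382 of 26296). The opposite separation, every BPA40 fish above every Control fish, was more common, at 6.1% (1603 of 26296). The 3 means fell in the order of dose in 9.56% of the genes tested and rose in 25.1%. Of the 470 genes, 108 had a log2 ratio of BPA40 mean to Control mean of at most -0.8, with 0.5 CPM added to each. The BPA4 mean lay between the others in 73, the Control mean was at least 2 CPM in 56, and in 54 the same ratio at F2 112 dpf was below 0.7. The 3 genes nearest the limit on the inside were GSONMT00038105001, GSONMT00053303001 and GSONMT00064908001, with ratios of -0.83, -0.82 and -0.81. Just outside were GSONMT00077461001, GSONMT00004561001 and GSONMT00004854001, each with a ratio of -0.79.

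The values of F2 at 365 dpf chose the genes, so they are described here and no test of them is read. Counts from the fits at this time point are given further below for reference only. The log2 ratio of BPA40 over Control ran from -6.25 to -0.81 with a median of -1.21. Over all genes tested at this time point the same ratio had a median of 0.13 for BPA40 and 0.11 for BPA4 when fish were scaled by total fragments. With TMM factors, which scale to the bulk of the genes, these medians were -0.01 and -0.01, and the median of the 54 genes was -1.36 for BPA40 and -0.86 for BPA4. Control levels were spread widely, from 2.26 to 3548 CPM with a median of 10.4 CPM. They were under 10 CPM in 27 genes and over 100 CPM in 8. In single fish, the median over the 54 genes of the log2 difference from the Control mean was -0.14 to -0.01 in Control, -1.17 to -0.66 in BPA4 and -1.45 to -1.10 in BPA40. On this summary the BPA40 and BPA4 fish lay below the Control fish, and BPA4 fish r0 reached the range of BPA40. The rule required this of BPA40 in every gene and favoured it for BPA4 through the BPA4 mean. Nothing is therefore read from this separation.

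**Figure D1:**
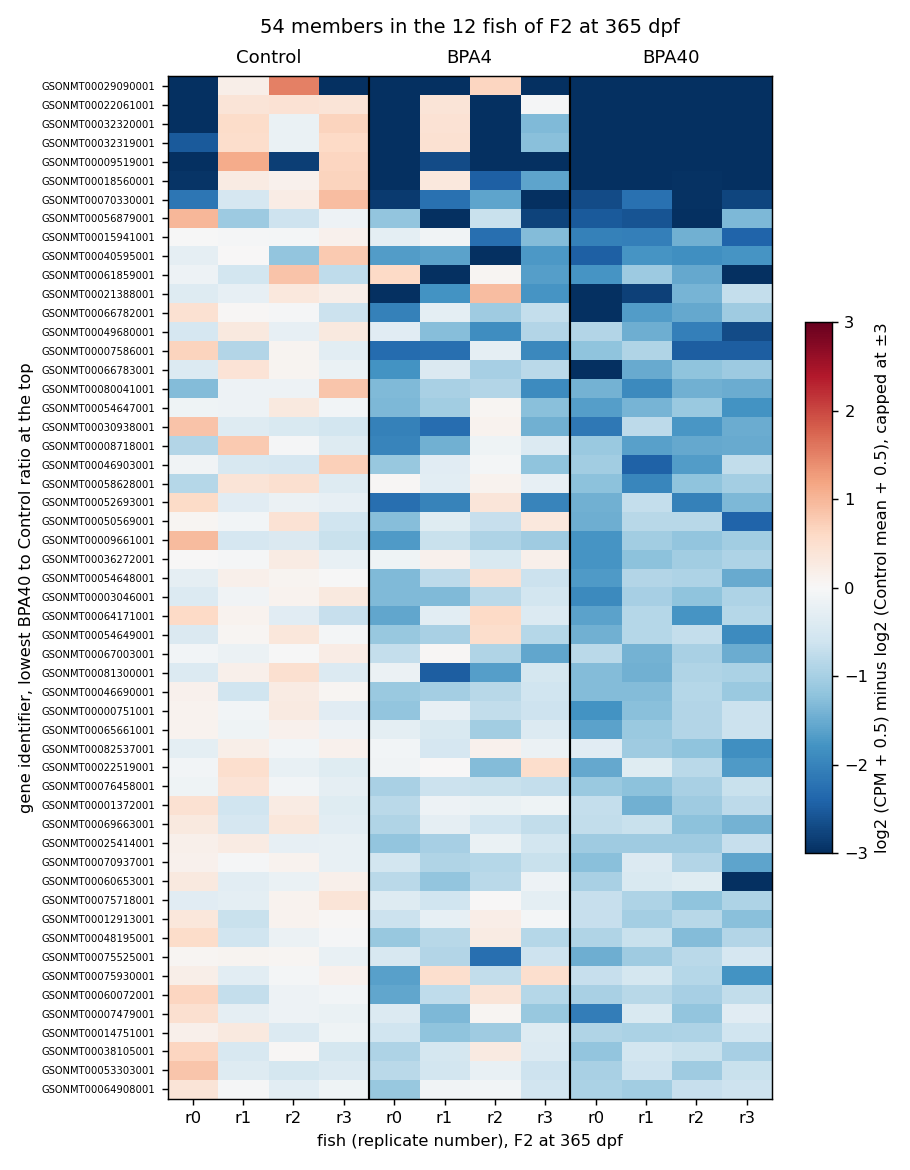
Each row is 1 of the 54 genes, ordered by its BPA40 to Control ratio, and each column 1 fish of F2 at 365 dpf (replicates r0 to r3 of Control, BPA4 and BPA40). Colour gives the log2 difference from the Control mean, capped at ±3. The BPA40 columns are below 0 throughout, as the choice of genes requires, while the BPA4 columns mix levels of both kinds, and some rows at the top are low in Control fish too.

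Library r0 of Control stood apart in scaling. Its TMM factor was 0.736, against 0.983 to 1.21 in the other 11 fish of F2 at 365 dpf. With TMM library sizes the same rule gave 117 genes, 49 of them among the 54. Leaving out a Control or BPA40 fish loosens the demand on every fish, so the count tends to rise: it was 95 without Control r0 (43 among the 54), 98 without Control r3, 86 without BPA40 r0, 81 without BPA40 r2 and 100 without BPA40 r3, and 68 to 74 without the other 3.

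With 0.5 CPM added, the highest Control fish was under 2 times the lowest in 28 of 54 genes. The rule demands Control fish above every BPA40 fish and so acts on this spread, and no share over all genes was computed. In F1 Control at 365 dpf, which had no part in the choice, members varied more between fish than other genes, as given below. GSONMT00015941001 had 6.85, 6.77, 6.61 and 7.59 CPM in Control, 5.58, 6.40, 1.05 and 2.51 CPM in BPA4, and 1.33, 1.31, 2.22 and 0.918 CPM in BPA40. The Control fish were nearly level, and the BPA4 fish fell into a higher and a lower pair. GSONMT00046690001 had 50.1, 30.0, 54.6 and 47.8 CPM in Control, 20.9, 22.4, 25.6 and 30.0 CPM in BPA4, and 18.4, 18.3, 25.1 and 20.8 CPM in BPA40. Here BPA4 overlapped BPA40, and BPA4 r3 and the lowest Control fish, r1, were level at 30.0 CPM. Control r1 was higher by less than the printed digits show. Its TMM factor was 1.01, against 0.983 in BPA4 r3, so the order of these fish holds only with scaling by total fragments. In GSONMT00076458001 no BPA4 fish was in the Control range, and BPA4 overlapped BPA40. It had 9.84 ± 2.29 CPM in Control, 5.71 ± 0.62 CPM in BPA4 and 4.74 ± 0.89 CPM in BPA40 (SD, n = 4 each). GSONMT00036272001 had 54.04, 52.3, 63.8 and 46.0 CPM in Control, 49.2, 58.9, 39.3 and 60.4 CPM in BPA4, and 15.4, 22.6, 25.98 and 28.1 CPM in BPA40. 3 of its BPA4 fish lay in the Control range and r2 in the gap, and none reached BPA40.

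The genes differed widely in abundance. Per length, as the fragments per kilobase and library size (FPKM) that the authors deposited, the Control mean ran from 0.246 to 1827 FPKM with a median of 7.04 FPKM. GSONMT00007479001 was the most abundant, at rank 46 of all genes in Control. It had 861 ± 439 FPKM in BPA40 and 1827 ± 885 FPKM in Control (SD, n = 4 each). In CPM it had 848, 2576, 1568 and 2803 in BPA40, against 4960, 2949, 3198 and 3084 in Control. Those groups were separated by the narrow step between 2803 and 2949 CPM. GSONMT00021388001 had 1181, 1302, 1924 and 1728 CPM in Control, 158, 443, 2894 and 448 CPM in BPA4, and 148, 220, 582 and 932 CPM in BPA40. A single BPA4 fish, r2, exceeded every Control fish, and the other 3 lay in the BPA40 range. GSONMT00060653001 had 103, 148, 160 and 16.3 CPM in BPA40, against 250, 165, 177 and 227 CPM in Control. Its lowest fish, BPA40 r3, stood far below the rest.

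Grading by dose was a property of the means more than of the fish. Of the 216 values of the 4 BPA4 fish (54 genes each), 78 (36.1%) were at or above the lowest Control fish, 95 (44.0%) at or below the highest BPA40 fish, and 43 (19.9%) in the gap between. No gene had all 4 BPA4 fish in the gap, and 25 genes had none there. In 40 genes some BPA4 fish were in the Control range and others in the BPA40 range. All 4 BPA4 fish were below every Control fish in 9 genes and above every BPA40 fish in 5. The rule acted on these same values, and no share over all genes was computed for the counts in this paragraph. They are a description only. The fall of the BPA4 mean from Control, as a share of the fall of the BPA40 mean, had a median of 66.9% and ran from 6.62% to 99.9%.

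The BPA4 fish were unlike each other. Fish r0 was in the BPA40 range in 35 genes and in the Control range in 8. Fish r2 was in the BPA40 range in 16 genes and in the Control range in 29, and it was the highest of the 4 BPA4 fish in 25 genes. Fish r1 and r3 lay between, in the Control range in 22 and 19 genes. The membership depends on these fish through their mean: without BPA4 r2 the rule gave 54 genes, of which 43 were among the original 54, and without BPA4 r0 it gave 55, of which 48 were.

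**Figure D2:**
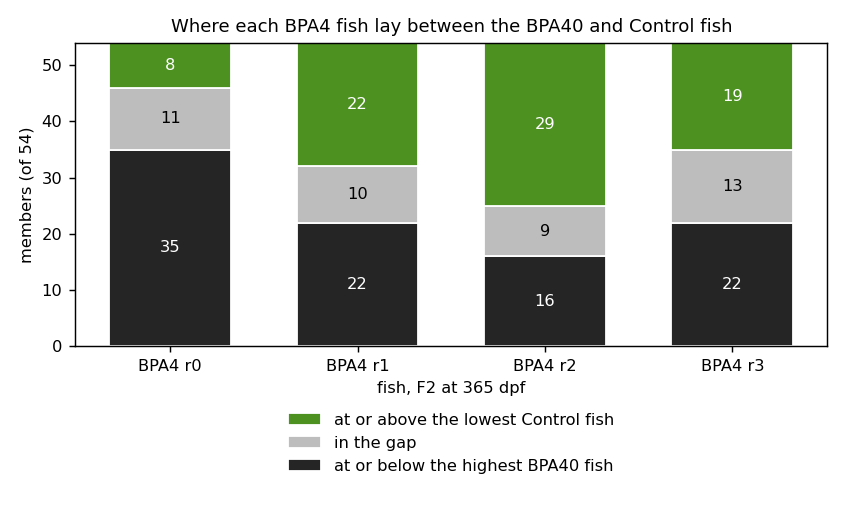
For each BPA4 fish of F2 at 365 dpf, the bar counts the genes (of 54) in which that fish was at or above the lowest Control fish, in the gap between the groups, or at or below the highest BPA40 fish. The share in the BPA40 range runs from 16 genes in r2 to 35 in r0.

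The largest ratios belonged to genes that were high in some fish and low in others. With 0.5 CPM added, the Control fish or the BPA4 fish spanned over 8-fold in 9 genes. GSONMT00029090001, with the lowest ratio, had 21.7, 1386, 3509 and 20.3 CPM in Control, 16.9, 36.1, 1915 and 24.97 CPM in BPA4, and 19.1, 16.6, 13.5 and 13.7 CPM in BPA40. Control fish r0 and r3 were just above the highest BPA40 fish, and the ratio rests on Control r1 and r2. Over the 48 fish the levels left a wide gap, with 12 fish at 725 to 3509 CPM and 36 fish at 10.2 to 39.9 CPM. The 12 high fish were 7 of 16 Control, 2 of 16 BPA4 and 3 of 16 BPA40 fish over the 4 time points. At F2 112 dpf they included 2 Control, 1 BPA4 and 2 BPA40 fish.

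GSONMT00022061001 had 0.143, 30.6, 31.9 and 30.6 CPM in Control, 0.121, 30.6, 0 and 22.8 CPM in BPA4, and 0, 0.0524, 0 and 0.0574 CPM in BPA40. The 4 BPA40 fish had 2 fragments in all, so no fold is given. The 5 high fish were the only ones above 0.750 CPM among the 48. It was at 0 fragments in all 12 fish of F1 at 140 dpf, where a count of 0 allows up to 0.260 CPM. GSONMT00009519001 was high, at 10.3 to 35.1 CPM, in 8 of 48 fish and at or below 2.61 CPM in the other 40. Its high fish were 5 of 16 Control, 0 of 16 BPA4 and 3 of 16 BPA40 fish. At F2 365 dpf only Control r1 and r3 were high, at 16.3 and 11.7 CPM.

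**Figure D3:**
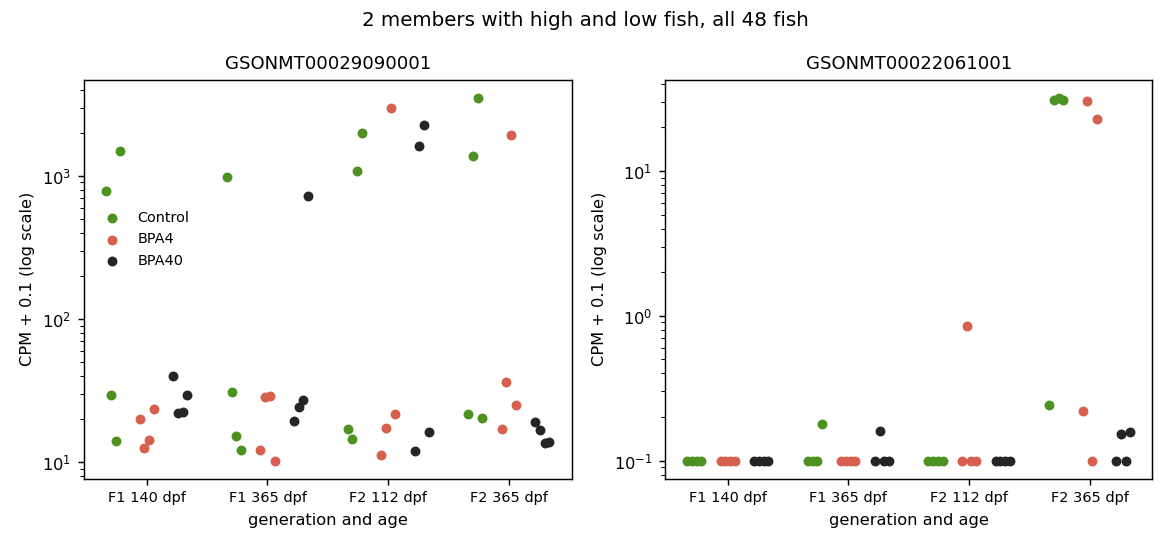
CPM of 2 genes in all 48 fish on a log axis, with 0.1 added; each point is a fish, coloured by treatment, at the 4 combinations of generation and age. GSONMT00029090001 has 12 fish at 725 CPM or more at all 4 time points, whereas the 5 high fish of GSONMT00022061001 all belong to F2 at 365 dpf.

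Some genes moved together from fish to fish. GSONMT00032320001 had 0.428, 16.2, 9.50 and 17.8 CPM in Control, 0.182, 15.1, 0.896 and 4.06 CPM in BPA4, and 0, 0, 0.120 and 0 CPM in BPA40. GSONMT00032319001, with the preceding identifier, and GSONMT00018560001 were highest in the same 5 fish, Control r1, r2 and r3 and BPA4 r1 and r3. These were also the 5 high fish of GSONMT00022061001 above, so the falls of these genes rest on the same fish. On log2(CPM + 0.5) with the mean of each group removed, GSONMT00032320001 correlated at r = 0.96 with GSONMT00032319001 and r = 0.97 with GSONMT00018560001 over the 24 F1 fish, which had no part in the choice. Over the 12 fish of F2 at 112 dpf these values were 0.87 and 0.42. At that age GSONMT00018560001 had 1 fragment each in Control r0 and r1 and 0 in every other fish. Its 0.42 therefore says nothing about shared movement. Counts were low for GSONMT00032320001 as well, at no more than 12 fragments in a fish at that age. In F1, GSONMT00018560001 had no more than 57 fragments in a fish. GSONMT00066782001 and GSONMT00066783001 also have consecutive identifiers and correlated at 0.93 over the F1 fish and 0.95 over the 12 fish of F2 at 112 dpf. GSONMT00054647001, GSONMT00054648001 and GSONMT00054649001 form a run of 3, with r of 0.75 and 0.80 between neighbours in F1 and 0.68 and 0.31 at F2 112 dpf. In all, 7 genes had another of the 54 at an adjacent identifier. Fragments can be divided between near-identical or overlapping gene models, and whether these neighbours share fragments was not tested.

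Other pairs also moved together in F1. GSONMT00007586001 with GSONMT00009661001, GSONMT00009661001 with GSONMT00052693001, and GSONMT00030938001 with GSONMT00060072001 had r of 0.86, 0.85 and 0.78, and at F2 112 dpf 0.42, 0.08 and 0.18. These pairs were picked for their high r in F1. Over all 54 genes the shared movement was weak. Each gene was correlated with the mean of the other members over the 24 F1 fish, and the median r was 0.10 in the 53 genes tested. The median for all other genes against the mean of the members was -0.13. The r exceeded 0.5 in 4 of 53 members (7.55%) and in 3.65% of other genes. Pairs of members had a median r of 0.02. All genes come from the same libraries, and the correlations are descriptions. In F1 Control at 365 dpf, the coefficient of variation between fish was 38.9% at the median of the 43 members with at least 2 CPM, and 23.0% over all genes tested at that level.

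The next comparisons ask whether the same genes were lower with BPA in the F1 fish and the F2 juveniles. Each time point was fitted with edgeR's quasi-likelihood test on fragment counts over all 12 fish, and each treatment was set against the same 4 Control fish, so the comparisons within a time point share controls. A filter on low counts kept 49 of the 54 genes at F1 140 dpf, 53 at F1 365 dpf and 46 at F2 112 dpf. No member passed a Benjamini-Hochberg adjusted p of 0.05 in any of these 6 comparisons by edgeR. Over all genes tested edgeR made 1 such call, 1 gene higher in BPA40 at F1 140 dpf (0.00474%). DESeq2, run as an alternative, called 2 members lower in BPA40 and 1 lower in BPA4 at F1 140 dpf, and 0 in the other 4 comparisons. Over all genes DESeq2 called 49 lower and 54 higher in BPA40, and 14 lower and 42 higher in BPA4, at F1 140 dpf. The counts below use the unadjusted p.

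In F1 at 140 dpf, 5 of 49 members were lower in BPA40 at p under 0.05, where 2.92% of all genes tested were, and 2 were higher, where 4.29% of all genes were. The median log2 fold change was -0.07 over members and 0.03 over all genes. The count of 5 became 8 without Control r2 and without BPA4 r0, the count of 2 became 0 without BPA40 r2 and without Control r1 and 4 without BPA4 r3 and without Control r3, and the median became -0.34 without Control r2 and without BPA40 r2. The largest fold change was that of GSONMT00029090001, at 39.9, 22.04, 22.3 and 29.3 CPM in BPA40, against 788, 29.4, 13.99 and 1480 CPM in Control. Only Control r0 and r3 were high, and the other fish overlapped (log2 fold change -4.54 ± 1.12 SE, edgeR adjusted p = 0.299). GSONMT00065661001 had 9.48, 8.34, 5.93 and 8.56 CPM in BPA40, against 15.5, 11.99, 12.8 and 13.8 CPM in Control. The groups did not overlap (log2 fold change -0.85 ± 0.19 SE, edgeR adjusted p = 0.205). GSONMT00052693001 had 10.6, 10.2, 14 and 5.11 CPM in BPA40, against 28.7, 29.9, 16.7 and 38.4 CPM in Control, also without overlap (log2 fold change -1.61 ± 0.47 SE, edgeR adjusted p = 0.457). GSONMT00075525001 and GSONMT00082537001 were the other 2 below the unadjusted threshold. These 5 were singled out after their values were seen.

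BPA4 at F1 140 dpf had 2 members lower (2.97% of all genes) and 2 higher (3.39% of all genes), with a median log2 fold change of 0.03 in members and 0.02 over all genes. The 2 lower ones were the high-and-low genes GSONMT00029090001 and GSONMT00009519001. The 2 higher ones, GSONMT00049680001 and GSONMT00012913001, were also the 2 that were higher in BPA40. GSONMT00049680001 had 23.1, 28.3, 47.0 and 42.8 CPM in BPA4 and 25.8, 16.7, 19.9 and 12.8 CPM in Control at that age. At F2 365 dpf, by contrast, it was lower in BPA40, as chosen, with a log2 ratio of -1.62. No test compared the generations for this gene.

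At F1 365 dpf, the same age as the fish that chose the genes, 1 of 53 members was lower in BPA40 (3.55% of all genes) and 1 was higher (4.04% of all genes). The median log2 fold change was -0.11 in members and 0.00 over all genes. GSONMT00040595001 was the lower one, at 1.52, 4.79, 3.10 and 1.38 CPM in BPA40, against 4.21, 3.34, 5.63 and 4.31 CPM in Control. Fish r1 of BPA40 lay among the Control fish (log2 fold change -0.77 ± 0.34 SE, edgeR adjusted p = 0.652). GSONMT00046690001 was the higher one, at 15.8, 30.1, 44.7 and 21.4 CPM in BPA40, against 17.4, 7.80, 4.84 and 17.4 CPM in Control. The groups overlapped at BPA40 r0 (log2 fold change 1.17 ± 0.38 SE, edgeR adjusted p = 0.652). At F2 365 dpf this gene was lower in BPA40, as chosen.

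The neighbours GSONMT00066782001 and GSONMT00066783001 came next among the lower members at F1 365 dpf. GSONMT00066783001 had 368, 739, 774 and 336 CPM in BPA40, against 582, 589, 955 and 1932 CPM in Control. The groups overlapped, and neither gene passed (log2 fold changes -0.98 ± 0.47 and -0.90 ± 0.42 SE for GSONMT00066783001 and GSONMT00066782001, edgeR adjusted p = 0.661 and 0.659). GSONMT00064171001 and GSONMT00025414001 followed with log2 fold changes of -0.81 and -0.51. On the higher side GSONMT00022519001, GSONMT00015941001, GSONMT00070937001 and GSONMT00049680001 had 0.59, 0.77, 0.47 and 0.42. BPA4 at this age had 1 member lower (3.93% of all genes) and 2 higher (1.95% of all genes), with a median log2 fold change of 0.19 in members and -0.01 over all genes. As single fish were left out, the count lower in BPA40 became 0 (without BPA40 r0 or r2, BPA4 r1 or Control r3) to 3 (without BPA40 r1 or Control r1), and the count higher in BPA4 reached 5 (without Control r3).

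At F2 112 dpf, 1 of 46 members was lower in BPA40 (2.67% of all genes) and 1 was higher (3.3% of all genes), and the median log2 fold change was 0.09 against 0.02 over all genes. The rule capped the BPA40 ratio at this age, so these counts support nothing. In BPA4, 8 of 46 members (17.4%) were higher, where 5.81% of all genes tested were, and 0 were lower, where 4.5% were. The rule did not use these BPA4 fish, but it used the same Control fish through its cap on the BPA40 ratio. How far this shaped the BPA4 counts was not tested. The median log2 fold change for BPA4 was 0.43 in members and 0.02 over all genes. In 5 of the 8, and in 5 of the 46 members tested, every BPA4 fish was above every Control fish, where 1.75% of all genes tested were so. In 0 members was every BPA4 fish below every Control fish, where 4.68% of all genes were. Among all genes higher at p under 0.05, 27.3% had every BPA4 fish above every Control fish. GSONMT00009661001 had 281, 501, 345 and 286 CPM in BPA4, against 209, 125, 188 and 214 CPM in Control (log2 fold change 1.17 ± 0.34 SE, edgeR adjusted p = 0.396). GSONMT00001372001 had 29.1, 24.8, 46.7 and 27.3 CPM in BPA4, against 10.1, 4.79, 22.6 and 14.6 CPM in Control (log2 fold change 1.44 ± 0.43 SE, edgeR adjusted p = 0.396). Neither gene's groups overlapped, but the step for GSONMT00001372001 was narrow, between 22.6 and 24.8 CPM. The other separated genes also had narrow steps. These were 66.6 to 68.9 CPM in GSONMT00038105001, 23.15 to 23.45 CPM in GSONMT00070937001 and 4.04 to 4.18 CPM in GSONMT00046903001. At 365 dpf these genes, like all members, were lower in BPA40 by the choice of genes.

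The count of 8 was not steady. It was 4 without Control r0, 4 without Control r1 and 5 when fish were scaled by total fragments alone. Fish r1 of BPA4 had the smallest library, 6664769 fragments, with 13 of the 54 genes at 0 fragments, and it was the highest BPA4 fish in 4 of the 8. Without it 9 members were higher. Apart from GSONMT00009661001 and GSONMT00001372001, the 8 were GSONMT00038105001, GSONMT00070937001, GSONMT00046903001, GSONMT00076458001, GSONMT00015941001 and GSONMT00014751001. These 6 had log2 fold changes of 0.76 to 1.41. All 8 were singled out after their values were seen.

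**Figure D4:**
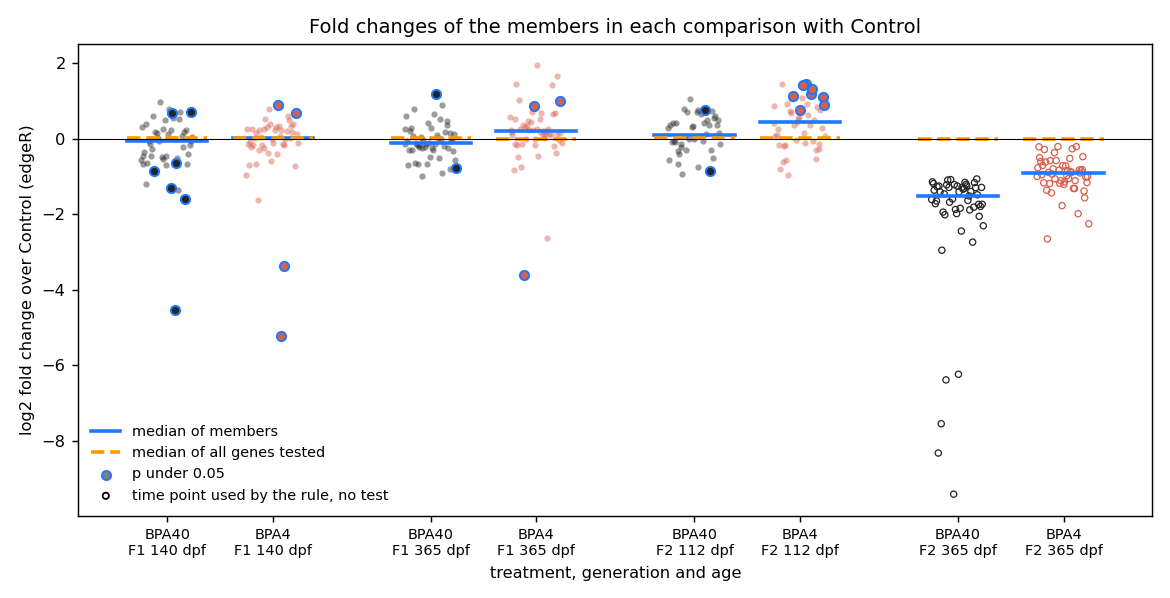
Log2 fold change over Control (edgeR) of each gene, for BPA40 and BPA4 at each generation and age; outlined points have an unadjusted p under 0.05, solid lines are the medians of the members and dashed lines those of all genes tested. Members lie on both sides of 0 in F1 and at F2 112 dpf, with medians of -0.11 to 0.43. In BPA4, 14 of 46 were below 0 at F2 112 dpf (median 0.43) and 16 of 53 at F1 365 dpf (median 0.19). Members lie below 0 at F2 365 dpf (open points), where the rule chose them.

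Across the 6 comparisons, 20 of the 54 genes fell below an unadjusted p of 0.05 at least once and 4 did so more than once. Among the 45 members tested at all 3 other time points, 42.2% did so at least once and 8.89% more than once, against 31.0% and 8.70% of all 15729 genes tested at all 3. The BPA40 fold change was below 0 at all 3 in 10 of the 45 (22.2%, against 10.8% of all genes) and above 0 in 7 (15.6%, against 16.2%). The cap on the F2 112 dpf ratio is part of the rule, so nothing is read from these shares. Separation of every BPA40 fish from every Control fish was counted at these time points too, over all 54 genes. At F1 140 dpf it held downwards in 5, a larger share than the 0.901% of the genes tested. It held upwards in 4, where 4.87% of the genes tested did so. No test was made of these shares. At F1 365 dpf it held downwards in 1 and upwards in 0 (1.46% and 2.08%), and at F2 112 dpf in 1 and 0 (3.3% and 0.748%). The order of the 3 means by dose was downwards in 9, 8 and 8 of the 54 genes at F1 140, F1 365 and F2 112 dpf, against 9.49%, 14.6% and 25.3% of the genes tested. It was upwards in 11, 7 and 6, against 22.6%, 20.8% and 9.01%.

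For reference, the same edgeR fit at F2 365 dpf, the contrast used by the rule, called 9 of 53 members lower in BPA40 at an adjusted p under 0.05 (0.0646% of all genes tested, or 17 of 26296), and DESeq2 called 37, of 137 genes lower in all. Nothing is read from these counts. For BPA4 edgeR called 0 members at an adjusted p under 0.05 (0.0038% of all genes were lower), and DESeq2 called 7, of 382 genes lower in all. At an unadjusted p under 0.05, 53 members were lower in BPA40 (5.91% of all genes) and 0 higher (6.09%), and 27 were lower in BPA4 (7.97%) and 0 higher (5.89%). The rule fixed the direction in both treatments in advance, so nothing is read from the BPA4 and unadjusted counts either.

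The members were also compared between the ages in F1. The 24 F1 fish were fitted together, with 53 members among the 24817 genes tested, and 365 dpf was compared with 140 dpf within Control. The fish of each age come from a table of their own, so age cannot be told apart from how each set was processed. By edgeR, 10 members (18.9%) were lower at 365 dpf at an adjusted p under 0.05, where 20.8% of all genes were. Higher at 365 dpf were 4 members (7.55%), where 25.5% of all genes were. Lower calls were thus near the share over all genes, and higher calls were fewer. The median log2 change was -0.38 in members and 0.07 over all genes. The count of 10 became 5 without the 140 dpf Control r3, and the count of 4 became 2 without the 140 dpf Control r1 and without the 365 dpf Control r1. In BPA40 fish 11 members were lower and 3 higher (20.8% and 5.66%, against 18.1% and 21.3% of all genes). In BPA4 fish these were 7 and 1 (13.2% and 1.89%, against 12.4% and 13.2%).

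Among the members that were lower at 365 dpf in Control, GSONMT00052693001 had 6.97, 9.28, 12.1 and 5.8 CPM at 365 dpf, against 28.7, 29.9, 16.7 and 38.4 CPM at 140 dpf. The ages did not overlap (log2 fold change -2.04 ± 0.44 SE, edgeR adjusted p = 0.00102). GSONMT00007586001 fell by 2.17 and GSONMT00000751001 by 2.13 on the log2 scale (edgeR adjusted p = 0.00175 and 0.0106). GSONMT00000751001 no longer passed without the 140 dpf Control r3, with a log2 change of -1.39. The largest called rise was that of GSONMT00075930001, at 1.502, 1.41, 1.08 and 1.25 CPM at 365 dpf, against 0.155, 0.234, 0.288 and 0.472 CPM at 140 dpf (log2 fold change 1.88 ± 0.57 SE, edgeR adjusted p = 0.0106). Its 140 dpf values rest on 2, 3, 4 and 6 fragments. They lie near the floor, since a count of 0 allows up to 0.260 CPM at that age. GSONMT00054649001 and GSONMT00003046001 rose by 1.76 and 1.16 (edgeR adjusted p = 0.00507 and 0.0172). GSONMT00003046001 lost its call without r1 of either age, at 1.01 without the 140 dpf fish and 0.91 without the 365 dpf fish.

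Whether the BPA40 difference itself changed with age in F1 was tested as an interaction over the 24 fish. No member passed an adjusted p of 0.05 by edgeR or DESeq2. At an unadjusted p under 0.05, 1 member had a lower difference at 365 dpf (3.8% of all genes) and 4 a higher one (2.24% of all genes).

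The rule favours genes with high Control levels in F2 at 365 dpf, and those levels are set here beside the other time points. The Control mean was higher at F2 365 dpf than at the other 3 time points in 40 of 54 genes, and lowest there in 1. The BPA40 mean was lowest at F2 365 dpf in 21 and highest in 7. Against the F1 Control fish of the same age, the F2 BPA40 mean was lower in 42 genes and the F2 Control mean was higher in 53. The median log2 difference from F1 Control was -0.55 for F2 BPA40 and 0.90 for F2 Control in the 54 genes. Over the 18134 genes with at least 2 CPM in F2 Control, those medians were 0.26 and 0.18. In 41 genes the F1 Control mean lay between the F2 BPA40 and F2 Control means. All F2 BPA40 fish were below all F1 Control fish in 11 genes, and all F2 Control fish were above all F1 Control fish in 17. The rule selected on both F2 groups, so these positions are a description. Apart from the medians, no share over all genes was computed, so how unusual the counts in this paragraph are is not known. The F1 and F2 tables were made separately, so generation cannot be told apart from processing.

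**Figure D5:**
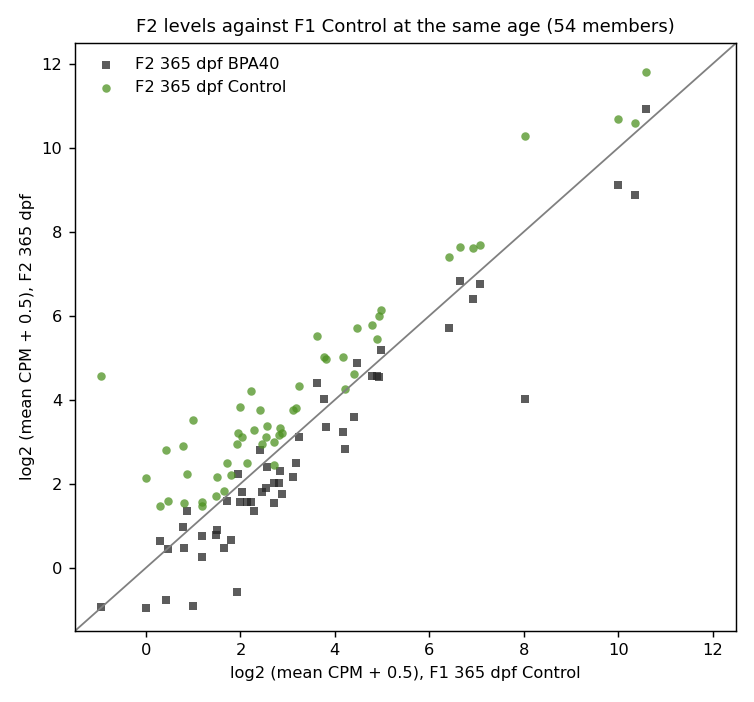
Mean level of each gene in F2 at 365 dpf, in BPA40 (squares) and Control (circles), against its mean in F1 Control at 365 dpf, as log2(CPM + 0.5); the line marks equal levels. F2 Control lies above the line in 53 of 54 genes and F2 BPA40 below it in 42.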

How the data were processed

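Liver RNA of 48 fish was sequenced from stranded mRNA libraries, read from both ends. According to the submitters' notes and the study's methods, the authors demultiplexed reads with bcl2fastq, aligned them with TopHat2 2.1.0 and Bowtie2 2.2.6 to the published trout genome, and quantified genes with Cufflinks. They deposited, per time point, a count of fragments per gene and fish, the FPKM values and scaled fragments (8 columns over all tables, set aside). Genes with status HIDATA are listed at 0 and were removed before totals were formed.

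Here the counts were scaled to CPM for the rule and tested with edgeR 4.0.16 (TMM, filterByExpr, quasi-likelihood) on all 12 fish of a time point, or all 24 F1 fish, with Benjamini-Hochberg adjustment over all genes tested. The common biological coefficient of variation was 34.7% to 41.0%. Alternatives were DESeq2 1.42.0, RLE factors, no TMM, no filter on low counts, a replicate block, another pseudocount and each fish left out. The pipeline was tested on simulated data. The deposited FPKM, scaled by the authors, served for levels between genes and for the group means printed for GSONMT00007479001. No test used them.

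Genes set to be named were the 10 lowest ratios and 5 highest Control means at F2 365 dpf and any member with an adjusted edgeR call for BPA elsewhere. To these were added the 5 smallest unadjusted p in each direction for BPA40 at F1 365 dpf. The 3 largest called rises and falls with age and 3 genes on each side of the limit completed the list. Of the 10 lowest ratios, GSONMT00070330001 (-2.63) and GSONMT00056879001 (-2.25) are given only here. The members that DESeq2 called at F1 140 dpf were not named as such. Others were named after their values were seen. The members, rules and lists were chosen with earlier results of these data known. Lists of pathway and cell type genes could not be applied, since no identifier could be matched to a name.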

Additional observations from a re-analysis of the deposited data

Results flagged for a closer look

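Within groups of 4 fish, 84 sets of values were examined for a fish far from the rest, by the share of the group's range that lies between an extreme fish and its neighbour (Dixon's limit at 95%). 11 sets exceeded it, where chance would give 4.2 if the sets were independent and normally distributed. Most sets were CPM of single genes on an unlogged scale, and all share the same fish, so the 11 cannot be weighed against 4.2. On the median over the 54 genes, BPA4 fish r0 was low at F2 365 dpf (0.897), and BPA4 r0 was low at F1 140 dpf (0.833).

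GSONMT00029090001 accounted for 4 of the 11. Single high fish stood apart in BPA4 at F2 365 dpf (0.990), BPA40 at F1 365 dpf (0.989), Control at F1 365 dpf (0.981) and BPA4 at F2 112 dpf (0.996). GSONMT00021388001 had a high BPA4 fish at F2 365 dpf (0.894) and a low BPA40 fish at F1 140 dpf (0.909). GSONMT00060653001 had a high BPA40 fish at F1 140 dpf (0.837) and a high BPA4 fish at F2 112 dpf, at 1932 CPM (0.954). GSONMT00007479001 had a high Control fish, r0, at F2 365 dpf, at 4960 CPM (0.876).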

How the results depend on the processing

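The set of 54 genes depended on scaling and single fish: TMM library sizes gave 117 genes, and leaving out 1 fish gave 50 to 100. Counts of members at p under 0.05 were small. The named genes followed for BPA40 at F1 365 dpf and with age in F1 Control kept their sign wherever they were tested. Medians near 0 did not. With 1 fish left out, the median log2 fold change of members at F1 140 dpf was -0.34 to 0.03 in BPA40. In BPA4 it was -0.16 to 0.19. At F1 140 dpf, members lower in BPA40 were 8 with DESeq2 and 8 without the filter on low counts (5 in the main test), and members higher in BPA40 were 4 without TMM (2). At F1 365 dpf, members lower in BPA40 were 3 with DESeq2, 3 without the filter and 0 without TMM (1), and members lower in BPA4 were 0 with DESeq2 (1). At F2 112 dpf, members higher in BPA40 were 2 with DESeq2, 2 with RLE factors and 0 without TMM (1), and members higher in BPA4 were 5 without TMM (8).

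With 1 fish left out, members lower and higher were 4 to 8 and 0 to 4 in BPA40 at F1 140 dpf, 2 to 4 and 1 to 2 in BPA4 at F1 140 dpf, 0 to 3 and 1 to 3 in BPA40 at F1 365 dpf, 0 to 1 and 1 to 5 in BPA4 at F1 365 dpf, 1 to 2 and 0 to 2 in BPA40 at F2 112 dpf, 0 to 2 and 4 to 9 in BPA4 at F2 112 dpf, and 5 to 11 and 2 to 4 with age in F1 Control. The interaction stayed at 0. The causes were not tested.

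The replicate numbers did not pair the fish: same-numbered deviations correlated at -0.39 to 0.26, and in no comparison were all 4 above 0.1. With the replicate number as a block, members lower in BPA4 at F1 365 dpf were 0 (1), members higher in BPA40 at F2 112 dpf were 0 (1), and members lower in BPA4 at F2 112 dpf were 1 (0). Low counts limit the genes with few fragments: 3 members had at most 3 fragments over the 4 BPA40 fish of F2 at 365 dpf.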
